A study of Mus musculus with 6 samples.

Results

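Open chromatin was examined at 36 genes of the mTORC2, insulin signalling and FOXO pathway, out of 21887 mouse protein-coding genes, in peak lists from pancreatic islets. The genes were taken by name and sorted by role into 5 subunits of the kinase complex mTORC2, the insulin receptor with 2 of its substrates, 7 kinases, 4 genes of mTORC1 and its upstream control, 3 FOXO transcription factors and 14 genes described as FOXO targets. All 36 names matched a protein-coding gene of the RefSeq gene table for GRCm38. A gene was counted as marked when a peak lay within 1000 bp of either of its ends, and peaks elsewhere inside the gene were counted apart as gene-body peaks.

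The assay was ATAC-seq, in which the Tn5 transposase cuts and tags DNA that is not covered by nucleosomes. Islets of 16-week-old mice were hand-picked, infected with adenovirus for 48 h outside the animal and lysed in lots of 50. The libraries formed 3 groups of 2. Wild-type islets that received the GFP virus Ad-GFP are called control-GFP here. Islets of the genotype BetaRicKO with the same virus are called knockout-GFP, and islets of that genotype given Ad-Acsl4, a virus that adds the fatty acid activating enzyme Acsl4, are called knockout-Acsl4. All 6 libraries therefore came from virus-treated islets. Islets without virus, and wild-type islets with Ad-Acsl4, were not analysed here. The genotype name points to beta cells, but the sources used here do not name the promoter that drives the deletion. Whole islets also hold endocrine cells other than beta cells. Nothing in the labels ties the 2 libraries of a group to different animals, so p-values reflect how much these libraries vary, which may be technical. The study's title links added Acsl4 in the absence of mTORC2 with FoxO1 inhibition and loss of beta cell identity.

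In the textbook pathway, insulin binds its receptor, the receptor substrates recruit phosphoinositide 3-kinase, and the lipid it makes brings Akt to the membrane. There Pdpk1 and mTORC2, the complex built on Rictor, phosphorylate Akt on separate sites. Active Akt phosphorylates FOXO factors, which then leave the nucleus, so that FOXO target genes are transcribed less. In beta cells this pathway is known for its part in cell mass and in the maintenance of identity.

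The lists differed greatly in length, from 525 peaks in knockout-Acsl4 1 to 5874 in knockout-Acsl4 2, with 4442 and 1628 in control-GFP 1 and 2 and 2206 and 4257 in knockout-GFP 1 and 2. Read depth is unknown. Between 67.2% and 75.5% of peaks lay at gene ends in control-GFP 1 and both knockout-GFP libraries, against 21.7% in control-GFP 2, 35.8% in knockout-Acsl4 1 and 5.29% in knockout-Acsl4 2. Of 15 islet endocrine marker genes, 3 had a gene-end peak in any library, namely Mafa, Nkx6-1 and Pcsk2. The other 12, among them Ins1, Ins2, Gcg and Pdx1, were at 0 in all 6. None of 7 acinar and ductal or 9 endothelial, stromal and immune markers had one. A missing peak in lists of this size says only that none was called. In pooled cells, fewer cells with an open site and less opening per cell cannot be told apart.

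Promoter sequences are shown for Rictor and Foxo1, which the title names, and for the 4 genes marked in the most libraries. Each run gives the 250 bases before the RefSeq start on GRCm38.p6, 5′ to 3′ on the gene's strand, and capitals mark letters that match one of 5 searched motifs. These were the forkhead motif GTAAACA, an insulin response core TGTTTT, the cAMP response element TGACGTCA, the GC box GGGCGG and the CCAAT box CCAAT, each on both strands. In Rictor a GC box on the reverse strand overlaps a CCAAT box.
Rictor promoter (chr15:6708131-6708380, plus strand): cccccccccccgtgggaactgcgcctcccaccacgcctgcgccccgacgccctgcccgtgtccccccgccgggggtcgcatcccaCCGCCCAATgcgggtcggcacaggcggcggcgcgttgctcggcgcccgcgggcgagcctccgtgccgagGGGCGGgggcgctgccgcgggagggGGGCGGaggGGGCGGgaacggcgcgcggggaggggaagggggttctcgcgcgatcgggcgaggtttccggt
Foxo1 promoter (chr3:52268087-52268336, plus strand): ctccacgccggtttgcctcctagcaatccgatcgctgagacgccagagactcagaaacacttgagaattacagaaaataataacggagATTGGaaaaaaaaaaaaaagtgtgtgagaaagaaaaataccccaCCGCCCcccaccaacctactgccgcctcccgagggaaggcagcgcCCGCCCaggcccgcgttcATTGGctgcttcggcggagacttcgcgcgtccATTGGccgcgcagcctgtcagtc
Gsk3b promoter (chr16:38088751-38089000, plus strand): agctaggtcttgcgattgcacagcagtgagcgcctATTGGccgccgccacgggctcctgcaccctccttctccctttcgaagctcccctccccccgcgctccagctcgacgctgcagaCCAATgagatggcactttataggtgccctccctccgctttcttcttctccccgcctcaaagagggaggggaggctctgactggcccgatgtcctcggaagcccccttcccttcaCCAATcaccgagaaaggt
Irs2 promoter (chr8:11008930-11009179, minus strand): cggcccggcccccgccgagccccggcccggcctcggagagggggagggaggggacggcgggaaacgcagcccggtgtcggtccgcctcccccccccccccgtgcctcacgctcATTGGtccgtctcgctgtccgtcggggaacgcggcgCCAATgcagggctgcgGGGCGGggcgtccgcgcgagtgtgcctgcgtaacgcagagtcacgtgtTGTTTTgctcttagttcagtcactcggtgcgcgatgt
Pik3ca promoter (chr3:32396815-32397064, plus strand): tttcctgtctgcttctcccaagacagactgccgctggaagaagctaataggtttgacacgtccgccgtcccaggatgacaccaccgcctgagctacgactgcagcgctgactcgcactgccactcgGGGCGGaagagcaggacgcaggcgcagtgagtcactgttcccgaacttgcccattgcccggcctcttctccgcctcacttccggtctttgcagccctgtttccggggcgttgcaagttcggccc
Sesn3 promoter (chr9:14276051-14276300, plus strand): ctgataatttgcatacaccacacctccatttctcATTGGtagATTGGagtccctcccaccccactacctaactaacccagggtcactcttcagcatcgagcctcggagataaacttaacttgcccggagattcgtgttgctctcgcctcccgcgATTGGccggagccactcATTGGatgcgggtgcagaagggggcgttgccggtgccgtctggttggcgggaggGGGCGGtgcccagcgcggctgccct
The peaks covered these stretches to different extents. The Gsk3b stretch lay under a peak for 249 of 250 bases in control-GFP 1, 250 in knockout-GFP 2, 160 in knockout-GFP 1 and 0 in control-GFP 2, whose peak began after the start. For Irs2 the covered bases numbered 250 in control-GFP 1, 186 in knockout-GFP 1 and 133 in knockout-GFP 2, and for Sesn3 231, 156 and 250 in the same libraries. No base of the Rictor or Foxo1 stretch was covered in any library.

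**Figure D1:**
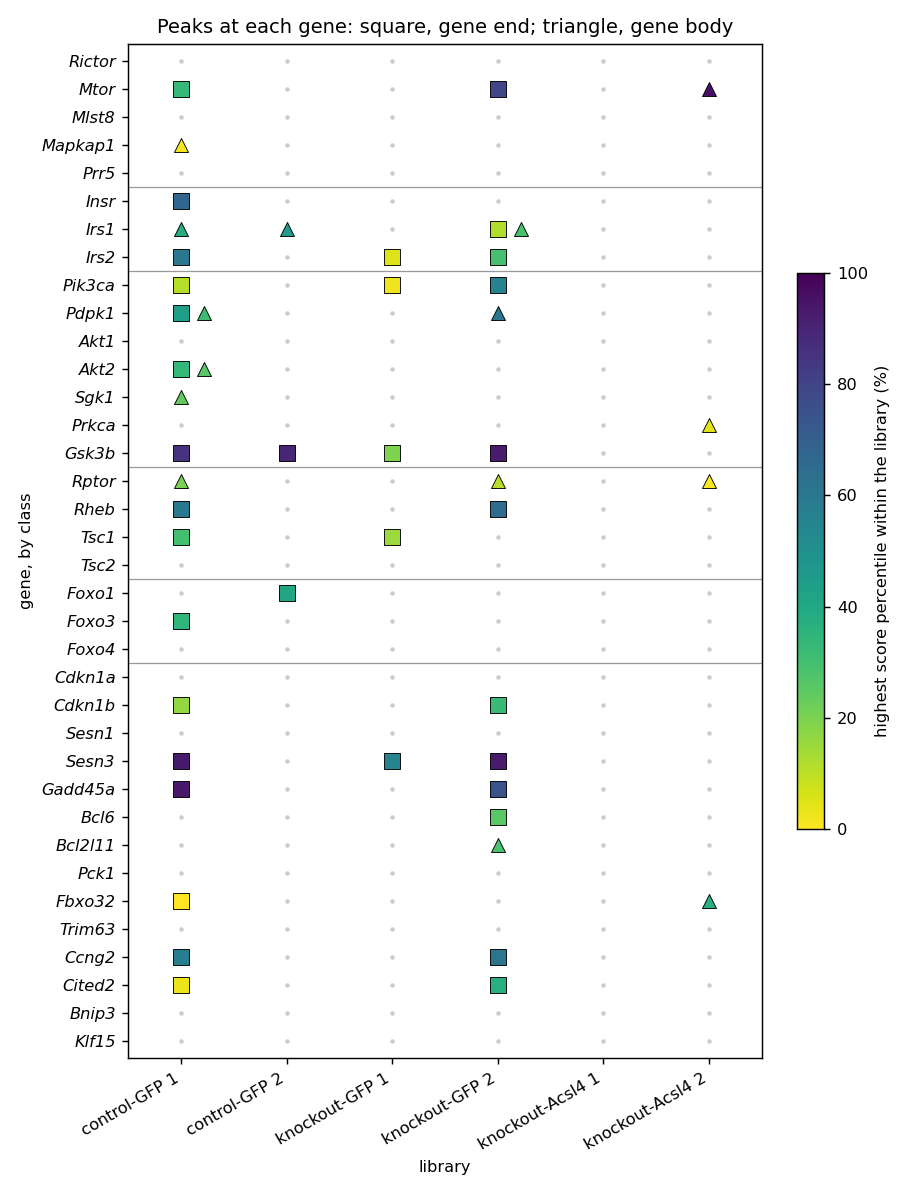
Peaks at each of the 36 genes (rows, by class, from mTORC2 subunits at the top to FOXO targets at the bottom) in each of 6 libraries (columns); squares are gene-end peaks, triangles gene-body peaks, small dots no peak, and the colour gives the highest score percentile within the library. Squares fill the columns of control-GFP 1 (16 genes) and knockout-GFP 2 (12 genes), while both knockout-Acsl4 columns hold no square.

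Of the 36 pathway genes, 19 (52.8%) had a gene-end peak in at least 1 library, against 24.5% of all protein-coding genes. Gsk3b was marked in 4 libraries, Irs2, Pik3ca and Sesn3 in 3, and 7 genes in 2, namely Mtor, Rheb, Tsc1, Cdkn1b, Gadd45a, Ccng2 and Cited2. Another 8 genes were marked in 1 library. A further 5, namely Mapkap1, Sgk1, Prkca, Rptor and Bcl2l11, had gene-body peaks alone, and 12 had no peak in the gene or within 1000 bp of it. Those 12 were Rictor, Mlst8, Prr5, Akt1, Tsc2, Foxo4, Cdkn1a, Sesn1, Pck1, Trim63, Bnip3 and Klf15. The pathway genes were longer than genes in general, with a median length of 41371 bp against 17169 bp, which bears on gene-body counts.

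By library, control-GFP 1 marked 16 of the 36 at a gene end (44.4%, against 16.7% of all genes) and control-GFP 2 marked 2 (5.56%, against 2.00%). Knockout-GFP 1 marked 5 (13.9%, against 8.20%) and knockout-GFP 2 marked 12 (33.3%, against 17.3%). Neither knockout-Acsl4 library marked any, where 1.02% of all genes in knockout-Acsl4 1 and 1.58% in knockout-Acsl4 2 were marked. The share of pathway genes thus stood above that of all genes in the 4 GFP libraries, by 2.66, 2.78, 1.69 and 1.93 times in the order given. No test was made of these ratios, since the genes are a named set and not a sample.

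**Figure D2:**
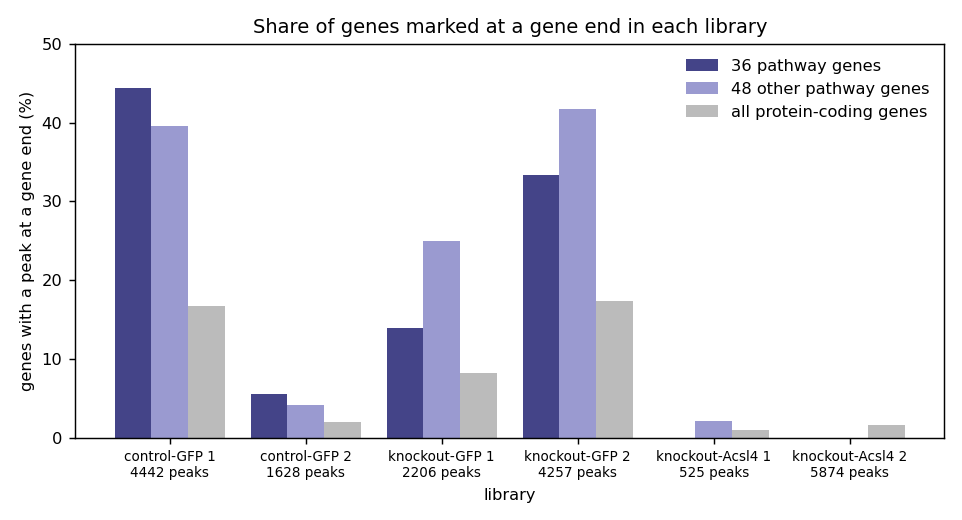
Percent of genes with a gene-end peak (y axis) in each library (x axis, with its number of peaks), for the 36 pathway genes, 48 other genes of the same pathway and all 21887 protein-coding genes. Both pathway bars stand above the grey bar in each GFP library (44.4% and 39.6% against 16.7% in control-GFP 1), and in knockout-Acsl4 2 both pathway bars are at 0.

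With gene-body peaks included, 20 pathway genes had a peak in control-GFP 1 (19.6% of all genes did), 3 in control-GFP 2 (4.0%), 5 in knockout-GFP 1 (9.77%) and 15 in knockout-GFP 2 (19.9%). Knockout-Acsl4 1 had none (1.5% of all genes), and knockout-Acsl4 2 had 4 (9.35% of all genes). Peaks at pathway genes made up 0.518% of the list in control-GFP 1 (23 of 4442, exact Clopper-Pearson 95% interval 0.329 to 0.776) and 0.184% in control-GFP 2 (3 of 1628, 0.0380 to 0.538). The share was 0.227% in knockout-GFP 1 (5 of 2206, 0.0736 to 0.528) and 0.376% in knockout-GFP 2 (16 of 4257, 0.215 to 0.610). It was 0.0851% in knockout-Acsl4 2 (5 of 5874, 0.0276 to 0.199), below the interval of either longer GFP list. That low share is not read as a lack of peaks at pathway genes, since it has no counterpart for all genes. In knockout-Acsl4 2, 11.1% of pathway genes had a peak in the gene or within 1000 bp of it, against 9.35% of all genes. Only 5.29% of the peaks in that list lay at gene ends. The share in knockout-Acsl4 1 was 0 of 525. The limit used for that list, 0.571%, is 3 peaks over 525. That limit is not a Clopper-Pearson bound, and the upper end of the exact interval for this list lies higher. Intervals and limits cover counting error only.

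Of the 5 mTORC2 subunits, 1 (20%) was marked at a gene end in any library, a share near the 24.5% of all genes. Rictor (chromosome 15, 6708349 to 6800401), the scaffold that defines mTORC2, had no peak in or near the gene in any library, controls included. The nearest peak lay 123796 bp away, in knockout-Acsl4 2, and the nearest in a control library 328927 bp away, so these lists do not check the knockout. Mlst8, a subunit shared with mTORC1, and Prr5, an mTORC2 subunit also called Protor-1, had none either, although peaks of control-GFP 1, knockout-GFP 1 and knockout-GFP 2 lay between 3110 and 3181 bp from Mlst8.

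Mtor (chromosome 4, 148448582 to 148557685) encodes the kinase of both complexes and was the marked member. Its start carried a peak in control-GFP 1, from 161 bp before to 7 bp after the start, with a deposited score of 4.16 (percentile 32.9 of that list), and one in knockout-GFP 2, from 268 to 16 bp before, with 10.75 (percentile 79.2). A percentile ranks a score within its own list. Control-GFP 2, knockout-GFP 1 and knockout-Acsl4 1 had no peak at the gene. Knockout-Acsl4 2 had 2 peaks inside it, beginning 11972 and 69839 bp past the start, with scores of 4.79 (percentile 95.9) and 2.35 (percentile 68.3). Neither overlapped a peak of another library.
Mapkap1, also called Sin1 and the subunit that positions substrates, had a single gene-body peak in control-GFP 1 with a score of 1.40 (percentile 1.5), near the bottom of that list.

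All 3 genes of the receptor class were marked in some library, where 24.5% of all genes were. Per library the count was 2 in control-GFP 1, 1 in knockout-GFP 1, 2 in knockout-GFP 2 and 0 in control-GFP 2 and both knockout-Acsl4 libraries. Insr, the insulin receptor (chromosome 8, 3150922 to 3279649), had a 456 bp peak at its high-coordinate end in control-GFP 1, from 3279223 to 3279678, with a score of 8.03 (percentile 67.2), and none in the other 5 libraries. Irs2, the receptor substrate best known in beta cells (chromosome 8, 10984681 to 11008929), was marked at its start in control-GFP 1 with a score of 7.01 (percentile 60.3), in knockout-GFP 1 with 1.93 (5.37) and in knockout-GFP 2 with 4.36 (29.5). Its 3 peaks overlapped each other and were 465, 195 and 133 bp wide. Irs1, the other substrate (chromosome 1, 82233105 to 82291439), had a start peak in knockout-GFP 2 alone, with a score of 2.97 (percentile 11.5). Inside Irs1, 7961 bp or more past the start, an overlapping pair of peaks was called in control-GFP 1 (82283346 to 82283478, score 4.63) and knockout-GFP 2 (82283308 to 82283436, score 4.37). Control-GFP 2 had a different Irs1 body peak, at 82278690 to 82278986, with a score of 2.66.

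Among the 7 kinases, 4 had a gene-end peak in some library. Gsk3b, the kinase that Akt inhibits to release glycogen synthesis (chromosome 16, 38089001 to 38246084), was the pathway gene marked in the most libraries. Its scores were 13.45 in control-GFP 1 (percentile 85.9), 5.81 in control-GFP 2 (89.2), 2.70 in knockout-GFP 1 (19.2) and 16.26 in knockout-GFP 2 (92.6), with no peak in either knockout-Acsl4 library. The peaks were 681, 178, 424 and 771 bp wide in that order, and each overlapped the other 3. Knockout-GFP 1 thus ranked Gsk3b low in its list and the other 3 libraries ranked it high. Of all genes, 1.40% were marked in exactly 4 libraries.

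Pik3ca, the catalytic alpha subunit of phosphoinositide 3-kinase (chromosome 3, 32397065 to 32466112), was marked in control-GFP 1 with a score of 2.48 (percentile 11), in knockout-GFP 1 with 1.44 (2.56) and in knockout-GFP 2 with 6.82 (55.9). The knockout-GFP 1 peak, 392 to 256 bp before the start, did not overlap the other 2, which reached the start base. Akt2, the Akt form known for insulin-driven glucose uptake, was marked in control-GFP 1 alone, over its first start with a score of 4.19 (percentile 33.4). Another Akt2 peak in that library, with 3.75, ended 13 bp before an internal RefSeq start. Akt1 had no peak within 1000 bp, and its nearest peaks lay 8924, 9017 and 8886 bp away in control-GFP 1, knockout-GFP 1 and knockout-GFP 2.

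Pdpk1, which phosphorylates the activation loop of Akt (chromosome 17, 24073680 to 24155619), counted as marked in control-GFP 1 through a peak at its far end, 24073505 to 24073635. That peak also lay at an end of the neighbour Kctd5, the single gene-end peak of the set that another gene shared. The internal RefSeq start of Pdpk1 at 24141594 was covered in both control-GFP 1 (score 3.99, percentile 31.6) and knockout-GFP 2 (7.45, percentile 60.6). Both peaks had their low-coordinate end at 24141557. Sgk1, a relative of Akt that mTORC2 activates, had 1 body peak in control-GFP 1, 379 to 238 bp before an internal start, with a score of 3.60. Prkca, protein kinase C alpha, had 1 body peak in knockout-Acsl4 2, 209014 bp past its start, with a score of 1.36 (percentile 4.55).

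In the mTORC1 class, Rheb and Tsc1 were marked in 2 libraries each and Tsc2 in none. Rheb, the GTPase that switches mTORC1 on (chromosome 5, 24802823 to 24842361), had closely matching peaks in control-GFP 1 (610 to 244 bp before the start, score 6.87) and knockout-GFP 2 (611 to 258 bp before, score 8.05). Tsc1, part of the complex that holds Rheb inactive, was the one gene marked in control-GFP 1 and knockout-GFP 1 but not in knockout-GFP 2, with scores of 3.92 and 2.24. Rptor, the subunit that defines mTORC1, had no gene-end peak. A body peak recurred at 119863390 to 119863576 in control-GFP 1 (score 3.11) and 119863417 to 119863579 in knockout-GFP 2 (2.87), 260485 bp or more past its start. Knockout-Acsl4 2 had another, 5130 bp past the start, with a score of 1.31.

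Of the 3 FOXO factors 2 were marked, each in a single library. Foxo1, the factor the title names (chromosome 3, 52268337 to 52350109), had 1 peak in 6 libraries, in control-GFP 2, from 102 to 239 bp after the start, with a score of 2.40 (percentile 40.7). The nearest peak of the longer list control-GFP 1 lay 166084 bp away. Foxo3 (chromosome 10, 42181845 to 42276695) had a 469 bp peak in control-GFP 1, 1448 to 980 bp before the start, with a score of 4.36, which lies just inside the 1000 bp window. Knockout-GFP 1 had an overlapping peak with a score of 4.54 that stayed just outside, 1066 bp from the gene end. Foxo4 had no peak.

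Of the 14 FOXO targets, 7 were marked in some library. Control-GFP 1 marked 6 of them and knockout-GFP 2 also 6, knockout-GFP 1 marked 1, and the other 3 libraries marked none. Sesn3, a sestrin that restrains mTORC1 (chromosome 9, 14276301 to 14326134), had scores of 19.03 in control-GFP 1 (percentile 93.0), 4.63 in knockout-GFP 1 (54.7) and 16.58 in knockout-GFP 2 (92.9). All 3 peaks overlapped each other, and the widest reach before the start was 313 bp. Gadd45a, a stress and DNA repair gene (chromosome 6, 67035096 to 67037407), had the highest score of any pathway gene, 20.48 in control-GFP 1 (percentile 94.1), and 9.69 in knockout-GFP 2 (74.5). It had no peak in the other 4 libraries.

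The cell cycle gene Cdkn1b, which encodes the inhibitor p27, was marked at its start in control-GFP 1 (score 3.0, percentile 16.2) and knockout-GFP 2 (4.64, percentile 32.1). Ccng2, an unusual cyclin linked to cell cycle arrest, had overlapping peaks 488 to 299 bp before the start in control-GFP 1 (score 6.81) and 604 to 360 bp before in knockout-GFP 2 (7.54). Cited2, a coactivator-binding regulator, had scores of 1.61 and 4.97 in the same pair of libraries. Bcl6, a transcriptional repressor, was marked in knockout-GFP 2 alone with a score of 4.0. Fbxo32, a muscle atrophy ubiquitin ligase, was marked in control-GFP 1 by a peak whose score, 1.31, was the lowest of that list, and had a body peak in knockout-Acsl4 2 with 1.54. Bcl2l11, which encodes the death factor Bim, had a peak in knockout-GFP 2 with 4.24, which ended 28 bp before an internal RefSeq start and lay 1295 bp inside the gene. Cdkn1a, Sesn1, Pck1, Trim63, Bnip3 and Klf15 had none. Pck1 and Trim63 are known for expression in liver and muscle, but a link between expression and a missing peak was not tested.

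Classes were compared by their counts in any library. The kinases proper were marked in 4 of 7 (57.1%), or 6 of 9 (66.7%) with the kinases Mtor and Insr added, the FOXO targets in 7 of 14 (50.0%), and the subunits of mTORC1 and mTORC2 in 1 of 6 (16.7%). In control-GFP 1 these 3 shares were 4 of 7, 6 of 14 (42.9%) and 1 of 6, and in knockout-GFP 2 they were 2 of 7 (28.6%), 6 of 14 and 1 of 6. The kinase counts differed by Akt2 and Pdpk1, and the equal FOXO target counts differed in that Fbxo32 was marked in control-GFP 1 and Bcl6 in knockout-GFP 2. In any library the receptor class was marked in 3 of 3, the mTORC1 class in 2 of 4 (50.0%) and the FOXO factors in 2 of 3 (66.7%). Of all genes 24.5% were marked in any library. With 3 to 14 genes a class these counts are descriptions.

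**Figure D3:**
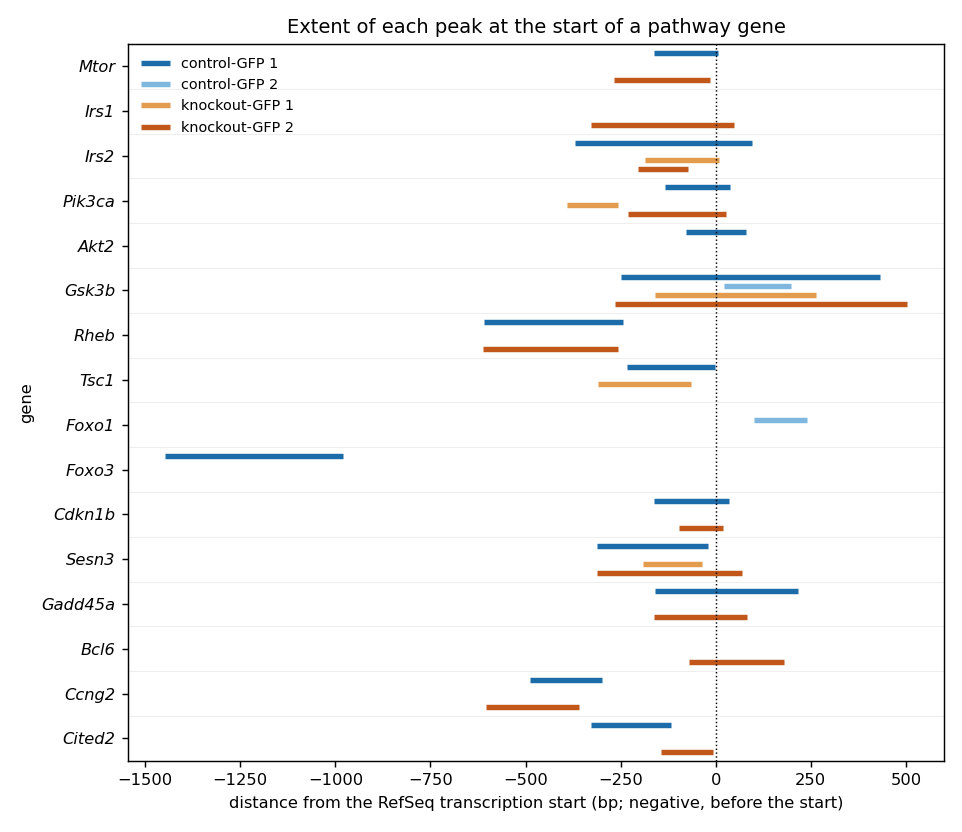
Extent of each peak at the start of a pathway gene (x axis, bp from the RefSeq transcription start, negative before it) for 16 genes (rows), with a coloured bar for each library. Most bars begin within 500 bp before the start, and 16 of 32 cover the start base; Foxo3 stands apart at 1448 to 980 bp before, and the Foxo1 bar lies wholly after the start.

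Gene-end peaks sat at starts rather than far ends. Of 33 gene-end peaks of genes with a RefSeq strand, 32 lay at the start and 1 at the far end, that of Pdpk1. The start base itself was covered by 16, while 14 lay wholly before it and 2 wholly after. Their median width, over all 35 gene-end peaks, was 245 bp, with a range of 115 to 771 bp. A peak of another library overlapped 27 of the 35. Of 17 gene-body peaks, 6 overlapped one of another library, and 5 lay within 1000 bp of an internal RefSeq start, at Pdpk1, Akt2, Sgk1 and Bcl2l11. None of the 5 body peaks of knockout-Acsl4 2, at Mtor, Prkca, Rptor and Fbxo32, overlapped a peak of another library. A site shared by several libraries is counted in each of them. These position and overlap counts were not set beside those of all genes, so they are not read as traits of the pathway genes.

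Sequence windows of 300 bases about the first start (250 before and 50 from it on) were on hand for 33 of the 36. The 33 were richer in CpG than promoters in general, with a median observed over expected CpG ratio of 0.76 against 0.58 over 17492 windows, and 78.8% of them had a ratio of 0.6 or more, against 48.4%. Genes marked in any library had a median ratio of 0.82 and unmarked genes 0.40, so the pathway genes were also set beside genes of like promoters. Among genes with a ratio of 0.6 or more, 46.2% of pathway genes and 30.2% of all genes were marked in control-GFP 1, and 42.3% and 32.8% in knockout-GFP 2. In knockout-GFP 1 the shares were 19.2% and 15.9%, and in control-GFP 2 they were 7.69% and 3.79%. The gap between pathway genes and all genes, in percentage points, was smaller than without that split in control-GFP 1 and both knockout-GFP libraries, and slightly larger in control-GFP 2. Of the 7 pathway genes with a ratio under 0.6, 2 (28.6%) were marked in control-GFP 1, against 4.90% of all such genes. These were Gadd45a (0.51) and Pdpk1 (0.06). Pdpk1 was marked by its far-end peak, away from the window that gave its ratio. In knockout-GFP 2, 1 of the 7 (14.3%) was marked, Gadd45a, against 4.23%. Within the set, marked genes had a median ratio of 0.83 and unmarked ones 0.72. Among genes with no peak, Klf15 (1.18), Rictor (1.02), Tsc2 (0.95) and Bnip3 (0.82) had the highest ratios.

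Motif matches were counted in the same windows. The GC box was found in 23 of 33 (69.7%, against 46.3% of all windows) and the CCAAT box in 14 of 33 (42.4%, against 39.2%). Mtor, Gsk3b and Sesn3 had 4 CCAAT boxes each, and Foxo1 and Cdkn1b 3. The forkhead motif was found in 5 of 33 (15.2%, against 2.93%), at Mapkap1, Akt1, Sesn1, Bcl2l11 and Trim63, so 3 of the 13 FOXO targets with a window held it. None of those 5 genes had a gene-end peak in any library, where 24.5% of all genes had one. None of the 17 marked genes with a window held the motif, and 0 of 17 is near the 2.93% of all windows. The motif was not counted over all marked genes, so no link between motif and peak is read from this. The insulin response core was found in 7 (21.2%, against 19.3%), Irs1 and Irs2 among them, and the cAMP response element in 0, against 2.33%. A match describes letters in this window and no match says nothing about a factor.

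Loss of Rictor was addressed by knockout-GFP against control-GFP. Pathway genes marked per library numbered 16 and 2 in control-GFP and 5 and 12 in knockout-GFP, so the groups overlapped. The means were 9 ± 9.90 and 8.50 ± 4.95 (SD, n = 2 each; two-sided exact permutation p = 1.00). No pathway gene was marked in both knockout-GFP libraries and neither control-GFP library, where 1.04% of all genes were, and none showed the reverse, against 0.0914%. A count of 0 among 36 genes is near these background shares. All 5 genes marked in knockout-GFP 1 were also marked in control-GFP 1, as were 75.7% of all genes marked there. Of the 12 marked in knockout-GFP 2, 10 were marked in control-GFP 1 (83.3% of that list and 62.5% of control-GFP 1's). The 2 others were Irs1 and Bcl6. Over all genes these shares were 67.1% and 69.6%, so the pathway genes lay above the first and below the second. Without control-GFP 1 the difference in means turned from -0.500 to 6.50, and without knockout-GFP 1 to 3. It was -7.50 without control-GFP 2 and -4 without knockout-GFP 2.

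Other genes of the pathway, 48 in number, gave a different count in this comparison. Both knockout-GFP libraries and neither control-GFP library marked 5 of them (10.4%, against 1.04% of all genes), named here after their values were seen, and 0 showed the reverse (0.0914% of all genes). Of those marked in both knockout-GFP libraries, the pattern was shown by 5 of 11 (45.5%), against 15.7% of all such genes. With starts alone 4 had it, without Akt1s1, against 0.918% of all genes. Pik3cb, the beta catalytic subunit of phosphoinositide 3-kinase, had percentiles of 49.1 and 67.9 in knockout-GFP 1 and 2. Rps6kb1, the S6 kinase downstream of mTORC1, had 62.1 and 21.7 from a peak shared with the end of its neighbour Tubd1. Eif4ebp2, a translation repressor that mTORC1 inhibits, had 54.5 and 82.0, and Phlpp2, a phosphatase of Akt, 44.8 and 20. Akt1s1, the mTORC1 inhibitor also called PRAS40, had 93.7 and 63.8 from peaks over 1 kb before its RefSeq start that also lay at an end of Tbc1d17. The nearest control-GFP peak to an end of any of the 5 was 10963 bp away, at Pik3cb in control-GFP 2. In the better 50% of each list 3 of the 48 had this pattern, namely Akt1s1, Eif4ebp2 and Eif2s1. Eif2s1 was not among the 5, since in full lists all 4 GFP libraries marked it. At 525 peaks a list 0 had the pattern. Of all genes 0.644% and 0.251% had it at these settings. The comparison has 2 libraries a group and no test was made per gene.

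Added Acsl4 in knockout islets was addressed by knockout-Acsl4 against knockout-GFP. No pathway gene was marked in either knockout-Acsl4 library, against 5 and 12 in knockout-GFP, so the groups did not overlap (means 0 and 8.50 ± 4.95, SD, n = 2 each; two-sided exact permutation p = 0.333, the smallest that 2 against 2 allows). The shares of all genes did not overlap either, at 1.02% and 1.58% in knockout-Acsl4 1 and 2 against 8.20% and 17.3% in knockout-GFP 1 and 2. A count of 0 among 36 genes is near the knockout-Acsl4 shares of all genes. Gsk3b, Irs2, Pik3ca and Sesn3 were marked in knockout-GFP 1 and 2 but not in knockout-Acsl4 1 or 2, making 4 of 36 (11.1%, against 5.79% of all genes). Of genes marked in both knockout-GFP libraries, the pattern was shown by these 4 of 4 and by 87.6% of all such genes, so it was near the background. In the reverse direction 0 pathway genes and 0.00914% of all genes were counted. Phlpp1, another Akt phosphatase, was the one gene among the 84 of both lists that a knockout-Acsl4 library marked, in knockout-Acsl4 1 (score 5.10, percentile 60.9), and it was also marked in control-GFP 1 and both knockout-GFP libraries.

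List length and content moved with this difference. Knockout-Acsl4 1 held 525 peaks, and in knockout-Acsl4 2 5.29% of peaks lay at gene ends. Cut to the 525 best-scored peaks of each list, control-GFP 1 marked Gadd45a and Sesn3, control-GFP 2 Gsk3b, knockout-GFP 2 Gsk3b and Sesn3, and the remaining 3 libraries none. Of all genes, 1.91% and 0.877% were then marked in control-GFP 1 and 2, and 1.90% and 1.92% in knockout-GFP 1 and 2. In knockout-Acsl4 1 and 2 the shares were 1.02% and 0.0868%. The pathway shares were 5.56% in control-GFP 1, 2.78% in control-GFP 2 and 5.56% in knockout-GFP 2. These stood above the shares of all genes but rest on 1 or 2 genes each. Counts of 0 among 36 genes are near the all-gene shares of the remaining libraries. The difference in means then was -1 in place of -8.50 (two-sided exact permutation p = 1.00), and the part of list length and content in the difference was not tested further. The comparison of knockout-Acsl4 with control-GFP shares its knockout-Acsl4 libraries with this one. Its means were 0 and 9 ± 9.90 (SD, n = 2 each; two-sided exact permutation p = 0.333). Without control-GFP 1 the difference was -2, and without control-GFP 2 it was -16. Gsk3b was the one gene with a mark in control-GFP 1 and 2 that was absent from knockout-Acsl4 1 and 2 (2.78% of the set, against 1.32% of all genes), and 0 showed the reverse, against 0.00457%.

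**Figure D4:**
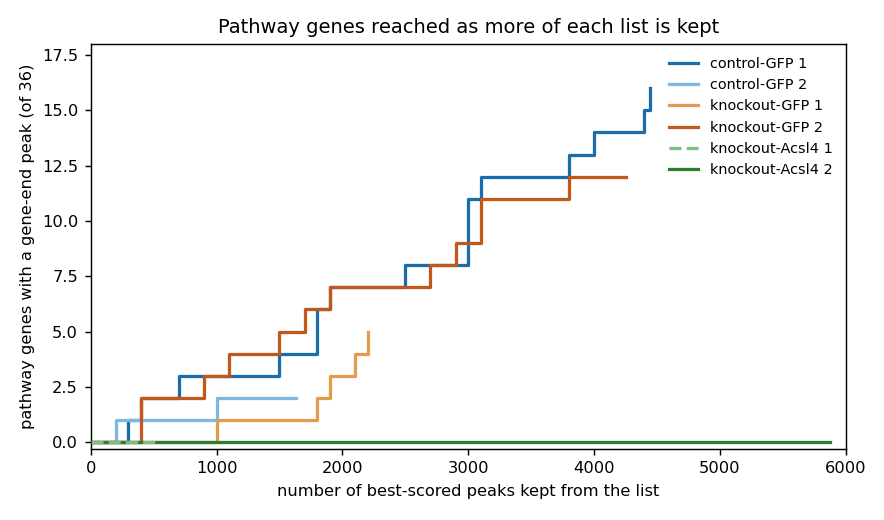
Number of the 36 pathway genes with a gene-end peak (y axis) when a given number of best-scored peaks is kept from each list (x axis), 1 line per library ending at the length of its list. The lines of control-GFP 1 and knockout-GFP 2 run close together, both at 7 genes with the better 50% of peaks, knockout-GFP 1 runs lower with 1, and both knockout-Acsl4 lines, drawn over each other, stay at 0.

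Scores of the marked genes were also ranked within each list. The median percentile of gene-end peaks at pathway genes was 39.2 in control-GFP 1 (16 peaks), where that of all gene-end peaks was 54.0. It was 65.0 against 64.5 in control-GFP 2 (2 peaks), 15.0 against 53.2 in knockout-GFP 1 (5 peaks) and 58.6 against 51.9 in knockout-GFP 2 (12 peaks). Pathway genes in knockout-GFP 1 thus came from the weaker part of its list, except Sesn3 at 54.7. Scores are each peak's own value in its list, and no change between lists was read from scores or ranks.

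The 48 other pathway genes were marked at a gene end in at least 1 library in 26 cases (54.2%, against 24.5% of all genes), a share like that of the 36. By library they numbered 19, 2, 12, 20, 1 and 0 in the order control-GFP 1 and 2, knockout-GFP 1 and 2, and knockout-Acsl4 1 and 2. As shares these were 39.6%, 4.17%, 25.0%, 41.7%, 2.08% and 0%, against 16.7%, 2.00%, 8.20%, 17.3%, 1.02% and 1.58% of all genes. In 3 or more libraries 12.5% of the 48 were marked, against 6.52% of all genes. The 6 marked in 3 or more libraries were Pik3r3, a regulatory subunit of phosphoinositide 3-kinase, Phlpp1, Ppp2r1a, the scaffold of a phosphatase that acts on Akt, Sod2, the mitochondrial superoxide dismutase, Ddb1, a DNA damage protein, and Eif2s1, a translation initiation factor. Ppp2r1a and Eif2s1 were marked in all 4 GFP libraries, as Gsk3b was. Ppp2r1a ranked high in each, with percentiles of 97.4, 89.4, 80.4 and 96.3, and Eif2s1 ranged from 39 to 93.6.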

How the data were processed

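Each of the 6 libraries has 1 deposited, headerless peak list of 5 columns (chromosome, start, end, name, value). Per the submitters' processing notes the tools were MACS2 2.1.1, BWA 0.7.10, FastQC, SAMtools and Trimmomatic, and what each one did is not described. The authors' deposited value was read as a −log10 q-value, since its lowest value over the lists was 1.30, the −log10 of 0.05. It is called a score and was used to rank peaks within a list. Each list was treated as called on its own library. The notes name human builds, but the organism is mouse and peaks lay at GRCm38 gene starts, which is why positions are read as GRCm38 and printed 1-based.

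Genes came from the RefSeq table of GRCm38.p6, and strands and promoter sequences from RefSeq promoter windows of the same build, found for 33 of 36 genes. A peak counted with an overlap of at least 1 bp with the 1000 bp on either side of a gene end. The code that assigns peaks to genes was checked on simulated peaks with known positions. Group means were compared by two-sided exact permutation over 4 libraries. Every gene of the set is named, other pathway genes when marked in 3 or more libraries, and exceptions are stated. The genes and lists were chosen with earlier results of these data known. Alternatives were windows of 500 and 3000 bp, starts alone, at least 50% of a peak inside the window, shorter lists, pairing and leaving out each library. Calculations used Python 3.11.15 and scipy 1.17.1.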

Additional observations from a re-analysis of the deposited data

How the results depend on the processing

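Peak number, which ranged from 525 to 5874, limits what these lists can show, and with 2 libraries a group the smallest two-sided p that exact permutation reaches is 0.333. Since both knockout-Acsl4 libraries had 0 genes at gene ends, narrower windows, shorter lists and omitted libraries could not turn the direction of their differences, but the sizes changed. At equal list lengths they were -1 against knockout-GFP (from -8.50) and -1.50 against control-GFP (from -9), and with gene-body peaks -0.500 (from -8) and -1 (from -9.50). Leaving out each library gave -12 to -5 genes for gene ends against knockout-GFP and -16 to -2 against control-GFP. The knockout-GFP minus control-GFP difference at gene ends, -0.500, had no stable direction. It was 0.5 with a window of 3000 bp, 1 with starts alone, 0 with a window of 500 bp, with the better 50% of each list and with at least 50% of the peak inside the window, and -7.50 to 6.50 when each library was left out. With gene-body peaks it was -1.50, 0.5 with the better 50% of each list and -10 to 7 when each library was left out. As a share of peaks it was -0.0498 percentage points, 0.0142 with the better 50% of each list and -0.217 to 0.117 when each library was left out.

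Genes of the 36 marked in both knockout-GFP libraries and neither knockout-Acsl4 library numbered 4, then 1 with the better 50%, 0 at equal list lengths and 4 to 12 with a library left out. The share of all genes with this pattern moved too, from 5.79% to 2.97%, 0.475% and, at most, 15.9%. For control-GFP without knockout-Acsl4 the count was 1, then 0 at equal list lengths and 1 to 16 with a library left out, where all genes went from 1.32% to 0.288% and, at most, 15.3%. Between knockout-GFP and control-GFP the counts of 0 became 0 to 3 (Irs2, Pik3ca and Sesn3 without control-GFP 1, where all genes went from 1.04% to 5.60%) and, in reverse, 0 to 5 (Akt2, Fbxo32, Foxo3, Insr and Pdpk1 without control-GFP 2, where all genes went from 0.0914% to 4.40%).

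Of the 48 other genes, 5 were marked in both knockout-GFP libraries and neither control-GFP library, and 4 with starts alone. The count was 3 with the better 50%, 0 at equal list lengths and 5 to 9 with a library left out. The reverse count was 0 to 5. All genes went from 1.04% to 0.918%, 0.644%, 0.251% and, at most, 5.60%. In reverse they went from 0.0914% to, at most, 4.40%. Of the 3 with the better 50%, Eif2s1 was not among the 5. These alternatives for the 48 genes were chosen after seeing the data. Against knockout-Acsl4 the count for knockout-GFP was 10, then 5 with the better 50%, 1 at equal list lengths and 10 to 19 with a library left out. For control-GFP it was 2, then 1 with the better 50%, 1 at equal list lengths and 2 to 18. All genes went from 5.79% to 2.97%, 0.475% and, at most, 15.9% for knockout-GFP. For control-GFP all genes went from 1.32% to 0.813%, 0.288% and, at most, 15.3%. Of the 11 other genes marked in both knockout-GFP libraries, 10 (90.9%) were in neither knockout-Acsl4 library. Over all such genes the share was 87.6%, so the pattern was near the background.

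Pairing libraries by replicate number as a replicate block left the differences at -0.500, -8.50 and -9 genes at gene ends, with sign-flip permutation p of 1, 0.5 and 0.5. The smallest p that sign flips of 2 pairs allow is 0.5, so no call was possible. Over genes, the difference between replicates 1 and 2 correlated at -0.28 between control-GFP and knockout-GFP, 0.06 between control-GFP and knockout-Acsl4 and -0.00 between both knockout groups. In lists of such unequal length these values cannot settle whether libraries with the same number were paired. Crossed pairs, tried after seeing the data, gave 0 calls, which the same smallest p of 0.5 fixed in advance.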
